A study of Mus musculus with 2 samples.

Results

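The cytosolic ribosomal protein genes were examined in C3H10 cells transfected with an antisense oligonucleotide (ASO) against MALAT1 or with a negative control ASO (NC). The members were chosen by gene symbol: Rpl or Rps with a number and at most the endings a, x, l or l1, together with Rplp0, Rplp1, Rplp2 and Rpsa. Pseudogenes with a -ps symbol and the Rps6k kinases were left out. Of 46095 genes in the deposited table, 86 had such a symbol, and 80 of these reached 10 counts in the sum of both libraries. The 80 members comprised 49 genes of the large (60S) and 31 of the small (40S) ribosomal subunit. In the GENCODE annotation 78 of them are protein coding, and Rpl6l and Rps12l1 are processed pseudogenes. The 6 genes that did not pass were Rpl10l, Rpl32l, Rpl39l and Rps4l with 0 counts in both libraries, Rpl3l with 1 and 0, and Rps18 with 3 and 3.

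Ribosomal proteins assemble with ribosomal RNA in the nucleolus into the subunits that translate mRNA in the cytosol, and each protein is needed in about equal amounts. Their mRNAs are abundant and stable, and they typically start with a pyrimidine-rich stretch, the TOP motif, through which the mTOR pathway controls their translation. Because their levels vary little between many cell states, several of them serve as reference genes for qPCR, among them Rpl23 in this study. Their spliced mRNAs have also been copied back into the genome many times, so each gene has a number of near-identical processed pseudogenes.

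C3H10 (C3H/10T1/2) is a line of mesenchymal cells from mouse embryos that turns into adipocytes under hormonal induction. The labels describe the cells as fibroblast precursors and give the strain C57BL/6, which does not match the C3H in the line's name. Both groups received 100 nM ASO with RNAiMAX before confluence, were held in induction medium for 2 days and then in maintenance medium with insulin, and were collected at day 6 of differentiation. By their labels the groups differed in the ASO alone, which was directed against MALAT1 (a nuclear long noncoding RNA) in one and was the negative control in the other, and which MALAT1 ASO was sequenced is not named. Each group was 1 library of rRNA-depleted total RNA, so no difference has a replicate check and every test compares these libraries, not the conditions.

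The control library held 58147539 counts and the MALAT1-knockdown library 61653549 counts. Malat1, the target, counted 170402 and 45396, so that 24.7% of the control level was left (log2 fold change -2.01). All 12 adipocyte markers examined were lower after knockdown, their median log2 fold change being -1.23 and their summed level 7163 CPM (counts scaled to library size) in the control and 2866 CPM in the knockdown library. The 12 fibroblast and preadipocyte markers summed to 20078 and 22129 CPM, with a median of 0.23 over the 11 tested, and Dlk1 had 0 counts in both libraries. Cd34, with 19 and 69 counts, was the one marker of this list past 2-fold. Markers of other cell types were low: the 6 macrophage markers summed to 9.31 and 10.8 CPM, with Ptprc, Adgre1 and Itgam at 0, the 4 endothelial markers to 0.85 and 0.74 CPM, and the 4 muscle markers to 0.05 and 0.06 CPM. These adipocyte and fibroblast values moved with the groups that all comparisons below use, and their part in the results was not tested. In bulk RNA, fewer adipocytes and less RNA per adipocyte cannot be told apart.

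Because near-identical copies decide how far a member's count can be read, 5 members are shown beside a pseudogene copy that also received counts. Each pair gives 90 bases of the coding sequence, read 5′ to 3′ from the GENCODE M21 transcripts of GRCm38, with bases in capitals where the member and its copy differ. Rpl3, a core protein of the peptidyl transferase region of the 60S subunit, lies on chromosome 15 (chr15:80077791-80091868, minus strand), and Rpl3-ps1 lies on the X chromosome (chrX:13202571-13203780, plus strand). Over 1209 coding bases the pair differed at 2. Bases 12 to 101 of the coding sequence were as follows.
Rpl3: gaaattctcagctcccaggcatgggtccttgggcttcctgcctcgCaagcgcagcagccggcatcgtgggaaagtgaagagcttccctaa
Rpl3-ps1: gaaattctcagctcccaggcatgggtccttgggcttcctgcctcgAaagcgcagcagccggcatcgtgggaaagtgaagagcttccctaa
Rpl26, whose protein lies near the exit of the nascent peptide tunnel, is on chromosome 11 (chr11:68901583-68906989, plus strand) and its copy Gm15772 on chromosome 5 (chr5:3236431-3236868, plus strand). The pair differed at 2 of 435 coding bases, and bases 132 to 221 are shown.
Rpl26: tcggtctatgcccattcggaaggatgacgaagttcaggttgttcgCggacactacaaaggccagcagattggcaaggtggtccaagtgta
Gm15772: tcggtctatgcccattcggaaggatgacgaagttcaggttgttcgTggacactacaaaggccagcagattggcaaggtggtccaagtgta
Rpl9, the member with the lowest fold change, is on chromosome 5 (chr5:65388364-65391444, minus strand) and Rpl9-ps4 on chromosome 13 (chr13:72454762-72455340, minus strand). The pair differed at 1 of 576 coding bases, within bases 192 to 281.
Rpl9: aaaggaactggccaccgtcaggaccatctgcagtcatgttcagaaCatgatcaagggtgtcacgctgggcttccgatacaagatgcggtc
Rpl9-ps4: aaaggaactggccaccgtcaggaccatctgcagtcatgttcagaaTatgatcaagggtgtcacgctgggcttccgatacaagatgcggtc
Rpl23, the qPCR reference, is on chromosome 11 (chr11:97777527-97782437, minus strand) and Gm9794 on chromosome 6 (chr6:66875321-66875743, minus strand). The pair differed at 1 of 420 coding bases, within bases 208 to 297.
Rpl23: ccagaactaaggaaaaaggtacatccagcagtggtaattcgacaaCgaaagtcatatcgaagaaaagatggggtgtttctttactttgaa
Gm9794: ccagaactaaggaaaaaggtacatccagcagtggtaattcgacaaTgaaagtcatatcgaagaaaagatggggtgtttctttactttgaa
Rps28, a small 40S protein, is on chromosome 17 (chr17:33819027-33824562, minus strand) and Gm10443 on chromosome 6 (chr6:86334031-86334240, plus strand). All 207 coding bases were identical, so bases 1 to 90 carry no capitals.
Rps28: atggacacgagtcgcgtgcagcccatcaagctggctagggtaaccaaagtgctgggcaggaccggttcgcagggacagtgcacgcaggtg
Gm10443: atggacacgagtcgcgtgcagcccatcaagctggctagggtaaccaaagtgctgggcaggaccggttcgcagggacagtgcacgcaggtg

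The ribosomal protein genes as a group differed little between the libraries. Together the 80 members took 1.87% of the control counts and 1.83% of the knockdown counts (exact 95% binomial intervals 1.871 to 1.878% and 1.827 to 1.834%). Fold changes were computed from counts scaled by edgeR's TMM factors with a prior count of 0.5, and the 95% intervals (Clopper-Pearson) account for counting error and nothing else. Where 1 molecule gave several counted reads, they are narrower than they should be. The median log2 fold change of the members was -0.06 with an interquartile range of -0.12 to -0.00, beside -0.00 and -0.23 to 0.18 over the 17356 genes tested. Below 0 lay 60 of the 80 members, beside 50.4% of the genes tested.

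Of the 80 members, 1 passed the call at an adjusted p under 0.05 in an exact binomial test and a 2-fold difference, beside 6.27% of all genes tested (2.18% higher and 4.09% lower). That gene was Rps12l1, annotated as a processed pseudogene, with 2 counts in the control and 17 in the knockdown library. It reached the 10 summed counts only through the knockdown library, where it is high. The log2 fold change of 2.70 (0.91 to 6.14, adjusted p = 0.00358 in the exact test) depends on the prior count, with 2 counts on the control side. A smaller difference was marked by a band from 20% below to 25% above the control level, called the 25% band in what follows. Outside the 25% band with an interval on one side of 0 were 3 members (3.75%), Rps12l1 and Rps27a higher and Rpl9 lower, beside 23.1% of the genes tested (9.83% higher and 13.3% lower). An interval on one side of 0 with no fold threshold was found for 37 members below 0 (46.2%) and 4 above (5.0%), beside 26.4% and 26.7% of the genes tested. This split depended on the scaling and was 30 below and 12 above with library totals, which moved the median of all genes tested from -0.00 to 0.02.

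Members with many counts lay close together. The 63 members with a mean of at least 1000 counts had a median of -0.06, a range from -0.33 to 0.11 and a standard deviation over genes of 0.087 on the log2 scale. The standard deviation was 0.261 over the 8251 genes of that depth. Inside the 25% band lay 62 of the 63 members (98.4%), beside 85.9% of genes at that depth. None of the 63 was called at 2-fold, beside 0.751% of genes at that depth. Below 0 lay 49 of the 63, beside 46.9%. Whole intervals lay below 0 for 36 of the 63 and above 0 for 2. Over the 8251 genes of that depth these numbers were 2623 and 3076.

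**Figure D1:**
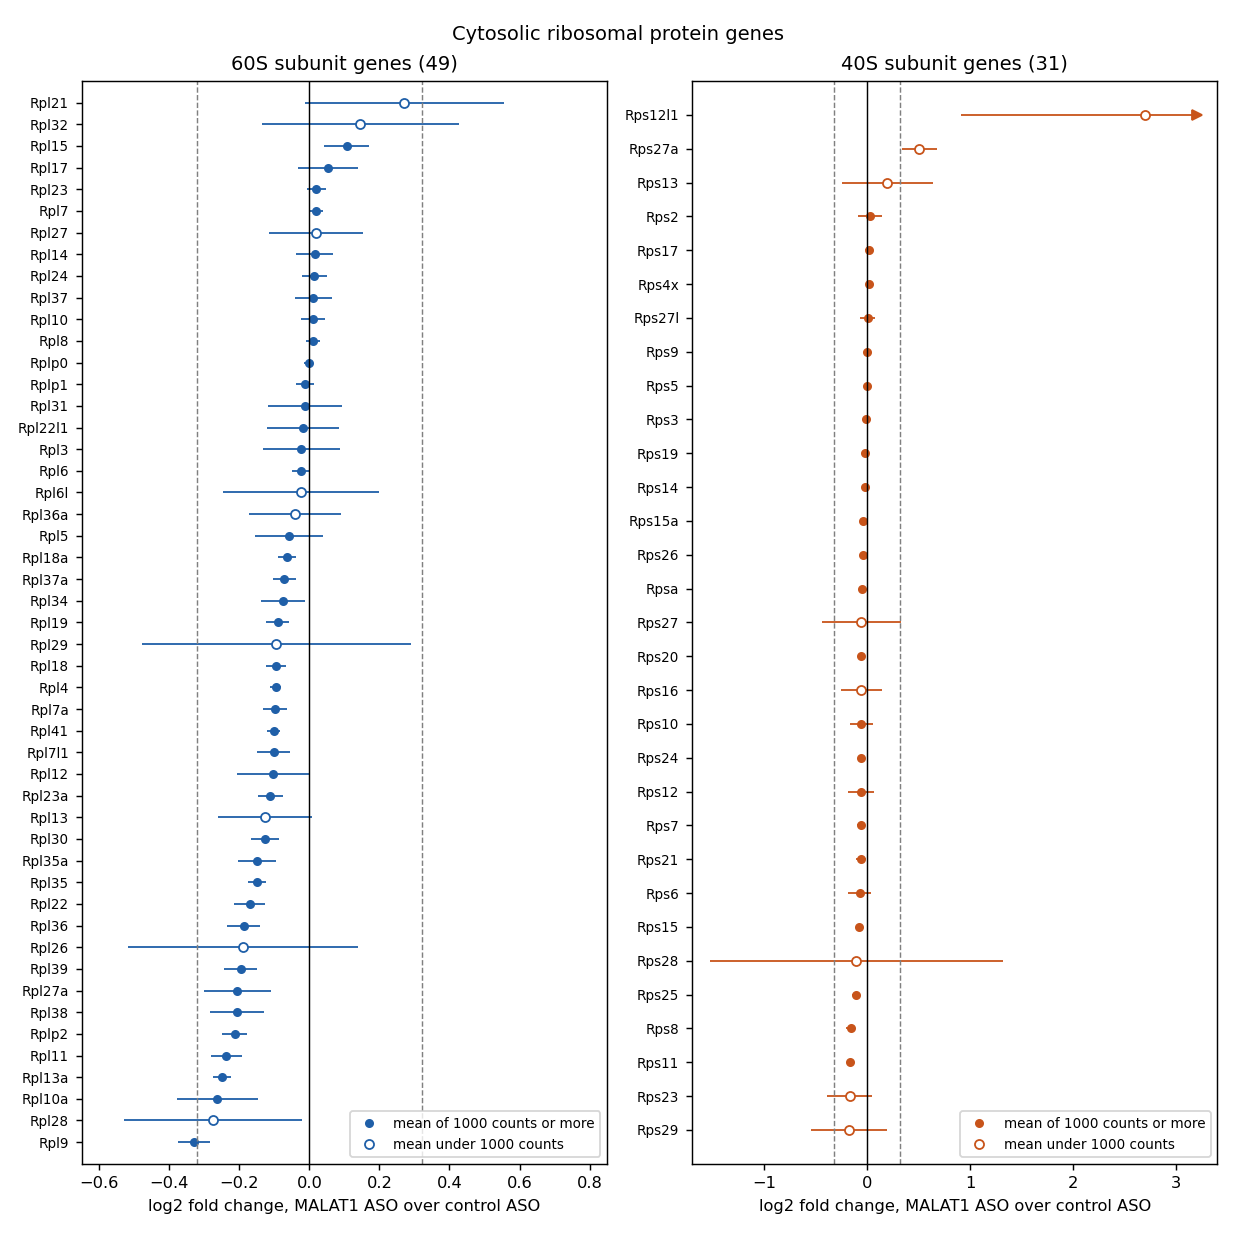
Log2 fold change (MALAT1 ASO over control ASO, x axis) of each of the 80 members, with 60S genes on the left and 40S genes on the right, ordered by value and drawn on x axes of different ranges. Points are fold changes, bars are 95% counting intervals, open points are members with a mean under 1000 counts, dashed lines mark the 25% band, and the arrow marks an interval that ends at 6.14. Filled points lie between -0.33 (Rpl9) and 0.11 (Rpl15), while Rps12l1 at 2.70 rests on 2 and 17 counts.

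The 60S genes spread more widely than the 40S genes. Among members with a mean of at least 1000 counts, the 40 genes of the 60S subunit had a median of -0.09 and a standard deviation of 0.099, and the 23 genes of the 40S subunit a median of -0.05 and a standard deviation of 0.052. The median distance from a value to the end of its interval was 0.042 and 0.032. The 10 lowest of these 63 values were all of 60S genes, and of the 5 highest 1, that of Rps2, was of a 40S gene. The difference between the subunits was not tested, since genes of 1 library pair are not replicates.

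Rpl9 had 8184 counts in the control and 7017 in the knockdown library. Its log2 fold change was -0.33 (95% interval -0.37 to -0.28), just outside the 25% band, and it was inside the band with library totals (-0.31) and, barely, with upper-quartile factors. It was the one member with a mean of at least 1000 counts outside the band, beside 14.1% of genes at that depth. Rpl13a, which besides its place in the ribosome takes part in a complex that silences inflammatory mRNAs, had 25309 and 22920 counts (-0.25, -0.28 to -0.22). Rpl11, which with Rpl5 and the 5S rRNA forms a particle that can bind Mdm2, had 8510 and 7775 counts (-0.24, -0.28 to -0.19). Its partner Rpl5 had 1702 and 1759 counts (-0.06, -0.16 to 0.04), an interval that held 0. With their copies summed, Rpl5 was at -0.07 (-0.13 to -0.02) and Rpl11 at -0.17 (-0.20 to -0.13), so both intervals then lay below 0. Rpl10a had 1319 and 1184 counts (-0.26, -0.38 to -0.15), and its value with copies, which held 88.9% of the sum, was -0.16 (-0.20 to -0.12). The spread between cultures cannot be read from 1 library per group.

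Fewer members had higher values. Rpl15 had 3521 counts in the control and 4080 in the knockdown library, a log2 fold change of 0.11 (0.04 to 0.17) that was 0.06 (0.03 to 0.08) with its copies summed. Rpl17 had 2074 and 2318 counts (0.05, -0.03 to 0.14) and Rps2, a 40S protein at the mRNA entry channel, 1199 and 1316 (0.03, -0.09 to 0.14). The intervals of Rpl17 and Rps2 held 0. With copies summed, Rpl17 was at -0.08 (-0.11 to -0.05) and Rps2 at 0.03 (0.01 to 0.04). Rpl7 had 43790 and 47812 counts (0.02, 0.00 to 0.04), which put its interval barely above 0.

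The stalk proteins, which recruit the translation factors to the 60S subunit, did not share one value. Rplp0, the stalk base and the member with the most counts, had 86992 in the control and 93521 in the knockdown library, a log2 fold change of -0.00 (-0.02 to 0.01) that became 0.02 with library totals. Rplp1 had 23656 and 25252 counts (-0.01, -0.04 to 0.01). Rplp2, which pairs with Rplp1 in the stalk, had 12954 and 12036 counts (-0.21, -0.25 to -0.18). The interval of Rplp2 thus lay below those of Rplp0 and Rplp1.

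The other deeply counted members were lower by small amounts. Rpl4 had 65848 and 66312 counts (-0.10, -0.11 to -0.08), Rps24 had 55191 and 57043 (-0.06, -0.08 to -0.04), and Rpsa, which doubles as a laminin receptor, had 53074 and 55054 (-0.05, -0.07 to -0.04). With library totals these values were -0.07, -0.04 and -0.03. All 3 stayed below 0 under both scalings. Levels per kilobase (RPKM, scaled to the library) used the merged length of all annotated exons of a gene and left out counts on copies. By this measure Rps15 was the highest in the control library at 1023 RPKM. Rplp0 followed at 909, Rplp1 at 822, Rpl41 at 678 and Rpl4 at 569 RPKM. The merged length was 630 bases for Rps15 and 1168 for Rpl41 and can exceed that of the mRNA. The order thus depends on the annotation and is not a ranking of mRNA amounts.

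Widely used reference genes did not share one value. Rpl23 had 19548 counts in the control and 21343 in the knockdown library (0.02, -0.01 to 0.05), and its copy Gm9794, shown above, 14362 and 13929. Summed with this copy, Rpl23 was at -0.05 on the log2 scale, so its sign depended on the copy. Rpl19 had 14534 and 14701 counts (-0.09, -0.12 to -0.06). Rps6, the substrate of the S6 kinases, had 1315 and 1345 counts (-0.07, -0.18 to 0.04), an interval that held 0. With its copies, which held 76.7% of the sum, Rps6 was at -0.15 (-0.20 to -0.10). Rpl13a, given above at -0.25, was the farthest from 0 of the reference genes examined, and Rps18 had 3 counts in each library, too few for a fold change.

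**Figure D2:**
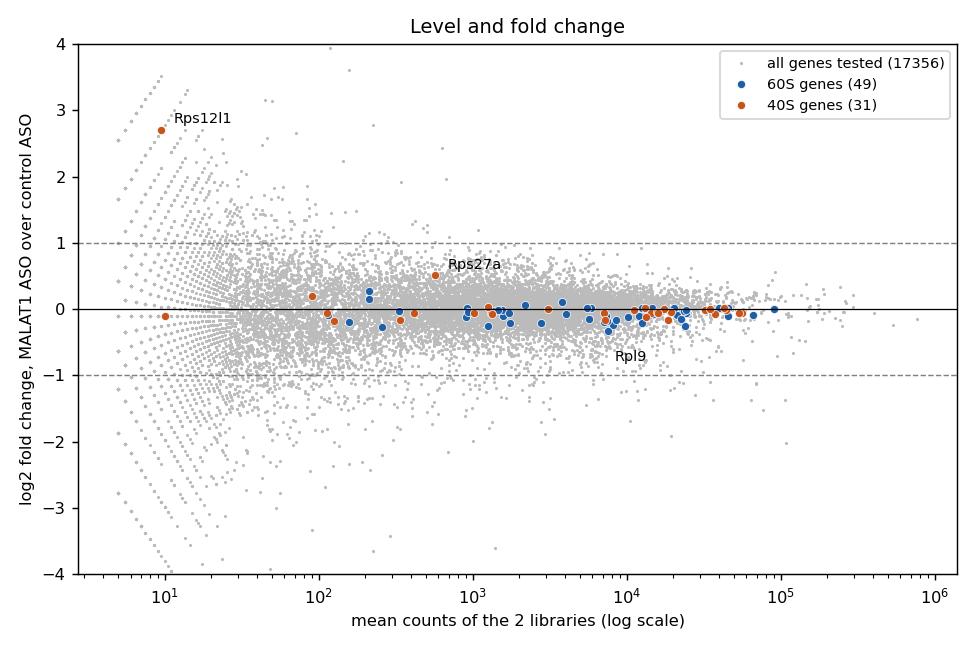
Log2 fold change (y axis) against the mean counts of the 2 libraries (x axis, log scale) for the 17356 genes tested (grey), with the 49 60S members in blue and the 31 40S members in orange. Dashed lines mark 2-fold and 60 genes lie outside the y range. Members lie between -0.33 and 0.27, except Rps12l1 at 2.70 with a mean of 9.5 counts and Rps27a at 0.51.

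A number of members had few counts in both libraries. A mean under 1000 counts was found for 17 of the 80, with a median control level of 3.23 RPKM beside 108 RPKM for the other 63. The lowest was Rps12l1 (2 in the control and 17 in the knockdown library). Rps28 had 10 counts in each library, Rps13 had 81 and 100, Rps27 had 112 and 116, Rpl29 had 115 and 116, Rps29 had 129 and 123, and Rpl26 had 162 and 153. In a middle range, Rpl21 had 184 and 239 counts, Rpl32 had 194 and 231, Rpl28 had 273 and 243, Rpl6l had 325 and 344, Rps23 had 343 and 328, Rps16 had 411 and 425, and Rps27a had 451 and 690. Just under the limit were Rpl27 with 879 and 959, Rpl13 with 915 and 903, and Rpl36a with 917 and 960. The intervals of 14 of these 17 members held 0. The exceptions were Rps12l1 and Rps27a above 0, and Rpl28 below it at -0.27 (-0.53 to -0.02). With its copies, which held 81.7% of the sum, Rpl28 was at -0.08 (-0.19 to 0.02), an interval that held 0.

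Rps27a encodes ubiquitin fused to a 40S protein. With 451 counts in the control and 690 in the knockdown library, its log2 fold change was 0.51 (0.33 to 0.68). Its 3 pseudogene copies with counts held 1122 and 1125 in all, and the gene summed with them had 0.10 (0.00 to 0.20). Once the copies were added, the value thus lay inside the 25% band.

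The counts of the genes and of their copies were then set side by side, an analysis chosen after the data had been seen. Copies were pseudogenes with the member's symbol and -ps, or with at least 95% identity over at least 200 bases to a member's transcript. Of 587 such copies of the members, 350 had counts and 57 had a mean of at least 1000. How reads that match several places were counted is not given in the sources used here, so a count on a gene or its copy is uncertain where both share sequence. The copies held 437823 counts in the control and 451493 in the knockdown library, 28.7% and 28.6% of the counts of members and copies together. Members and copies together took 2.63% of the control and 2.56% of the knockdown counts.

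In 28 members the copies held more counts than the gene itself. These were 11 of the 17 members with few counts and 17 of the other 63. The median share of the copies in the sum of both libraries was 79.2% for members with few counts and 8.82% for the others. Rpl26, with 162 and 153 counts, stood beside Gm15772 with 30674 and 32208, the copy that differs at 2 coding bases. Rpl3 had 1324 and 1403 counts and Rpl3-ps1 31698 and 33490. Rps28 had 10 and 10 counts and its copies 4829 and 4944 in all, of which the identical Gm10443 held 3320 and 3416. In each of these genes, the low count of the gene stood beside a high count of a copy in both libraries.

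The same was seen for other genes. Rps2 had 1199 and 1316 counts and Rps2-ps10 37034 and 40107. Rps10 had 1301 and 1345 counts and Rps10-ps2 20732 and 21138. Rpl29 had 115 and 116 counts and Gm13841 13009 and 12810. Rps13 had 81 and 100 counts and Rps13-ps1 5664 and 5576. Rps18, which did not pass with 3 counts in each library, had the copy Rps18-ps3 with 3246 and 3694. Not every member with few counts had such a copy. Rpl32 and Rps29 had no counts on any copy found, and the 1 copy of Rps27 with counts held 15 and 22. Rpl6l and Rps12l1 also had none, but they are themselves annotated as processed pseudogenes. As members they were not counted as copies of another gene, and pseudogenes with a -ps symbol went to the gene of that symbol. Their lack of copies therefore follows in part from how copies were defined.

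**Figure D3:**
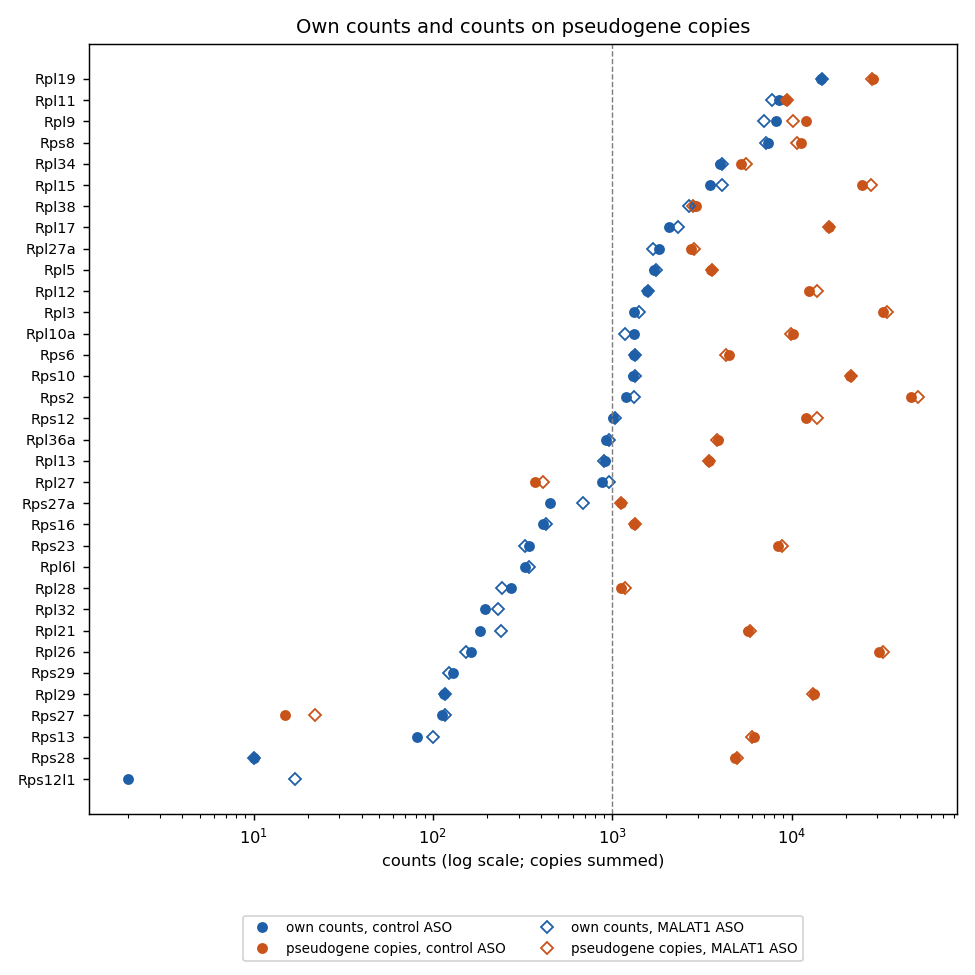
Counts (x axis, log scale) of 34 members with few counts or with more counts on copies than on the gene, ordered by the counts of the gene. Blue marks the gene and orange the sum of its pseudogene copies, with filled circles for the control ASO, open diamonds for the MALAT1 ASO and a dashed line at 1000 counts. For Rpl26 the gene lies at 162 and 153 counts and the copies at 30824 and 32362 counts.

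Adding the copies left the group near the same value. The median log2 fold change of the 80 sums was -0.06 with an interquartile range of -0.11 to -0.00, and 62 lay below 0. Members with a mean under 1000 counts numbered 5 in place of 17. Outside the 25% band with an interval on one side of 0 were Rpl9 (-0.34, -0.37 to -0.31) and Rps12l1. No copies were added to Rps12l1, so the sum could not change its value and is no check of it. Rpl9 and its most counted copies moved alike: Rpl9-ps6, matched by its symbol alone, had 8763 and 7293 counts and Rpl9-ps4 2820 and 2455. Rpl9-ps7 had 387 and 381 counts, a smaller difference. All copies of Rpl9 together had -0.35. Of the 45 members whose copies had a mean of at least 1000 counts, 35 had the same sign on the gene and on its copies. The copies of these 45 had a median of -0.08 and a range from -0.35 to 0.15. A read that could belong to either does not give an independent value, so these numbers are a description.

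Of 69 members with counts on copies, 10 had another sign with the sum. Rpl17 went from 0.05 to -0.08 and Rpl21 from 0.27 to -0.06. Rps12, with 1005 and 1038 counts beside 11592 and 13406 on Rps12-ps3, went from -0.06 to 0.09. Rps13 went from 0.20 to -0.14, and Rpl12, whose copy Gm10275 held 12439 and 13766 counts, from -0.10 to 0.03. These members are therefore given no direction.

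**Figure D4:**
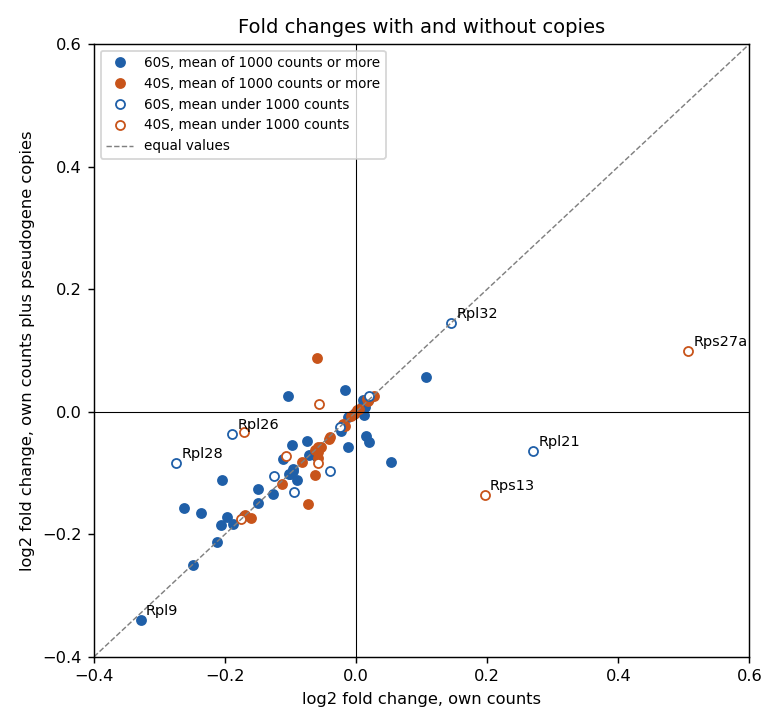
Log2 fold change of each member from its own counts (x axis) and from its own counts plus those of its pseudogene copies (y axis), with equal values on the dashed line. Blue marks 60S and orange 40S members, and open points have a mean under 1000 counts. Rps12l1 had no copies to add and lies outside the range at 2.70 on both axes. Most filled points lie near the line, while Rps27a moves from 0.51 to 0.10 and Rpl21 from 0.27 to -0.06.

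The counts of neighbouring genes were examined for each member over 10 protein-coding genes, the 5 before and the 5 after it in order of start. The value is the median of their mean counts in the 2 libraries. It was not computed for genes outside the symbol rule, so no general share stands beside it. On chromosome 17 this median was 7.25 counts for Rps28, 35.5 for Rpl10a and 79.25 for Rps10, and it was 3.0 for Rps18, which did not pass. Elsewhere on the chromosome it was 182.5 for Rps2, 1641 for Rpl7l1 and 5359 for Rpl36. Near Rps18, Pfdn6 had 2 and 2 counts, Ring1 had 2 and 6, and H2-K1 had 430 and 633. Near Rps28, Ndufa7 had 4 and 1 counts, Daxx had 8 and 14, and Hnrnpm had 12114 and 14419. What lies behind a low median was not tested. Low medians were also found on other chromosomes and beside members with many counts. A median under 100 counts was found for 15 members, of which 3 were on chromosome 17 and 12 had a mean of at least 1000 counts themselves. Among these were Rps19 at 1.5 and Rpsa at 29.25. Over members with few counts the median of this value was 685.5, and over the others 948.5.

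Some ribosomal proteins have a paralog, and the share of a paralog in its pair does not depend on scaling. Whether a paralog takes the place of its partner in the ribosome was not tested, and shares of counts do not give the make-up of ribosomes. Rpl22l1 had 14.7% of the Rpl22 pair in the control and 16.1% in the knockdown library (exact 95% binomial intervals 14.0 to 15.4% and 15.3 to 16.8%). The counts were 8700 and 8322 for Rpl22 and 1497 and 1593 for Rpl22l1. Rpl7l1 had 14.4% of the Rpl7 pair in the control and 13.4% in the knockdown library (14.1 to 14.7% and 13.1 to 13.7%), with 7352 and 7376 counts. The intervals of the Rpl22 pair overlapped and those of the Rpl7 pair did not. With the copies of both genes added, an alternative chosen after the data had been seen, Rpl22l1 had 15.0% and 16.9% (14.3 to 15.7% and 16.2 to 17.7%) and Rpl7l1 had 14.0% and 13.0% (13.7 to 14.3% and 12.7 to 13.3%). The intervals of neither pair then overlapped. The counts added to Rpl22l1 were those of 1 copy, Gm15421, with 38 and 100 (1.28, 0.74 to 1.87). Rpl22l1 itself was at -0.02 (-0.12 to 0.09).

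For Rps27 the paralog held most of the counts. Rps27l, a p53-responsive form, had 2960 and 3195 counts and 96.4% and 96.5% of the pair, but Rps27 itself was among the members with few counts. Rpl36al, which is outside the symbol rule, had 4002 and 4208 counts, 81.4% of the pair with Rpl36a in both libraries. With the copies of Rpl36a added to the pair, mainly Rpl36a-ps2 with 3840 and 3828 counts, this share was 45.6% and 46.6%. Rpl10l and Rpl39l, paralogs known mainly from testis, had 0 counts in both libraries, and Rpl3l, known from muscle, had 1 and 0. Rps4l, annotated as a transcribed processed pseudogene, also had 0 in both. For Rpl39l the 0 counts allow a share of the pair up to 0.050% in the control and 0.053% in the knockdown library (exact binomial limits).

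The start sites were examined for shared letters. The RefSeq promoter table (GRCm38.p6) gave 69 entries of 300 bases, 250 before and 50 from the annotated start, for 58 of the 80 members. A pyrimidine tract, defined as a C at most 5 bases from the start followed by at least 4 bases of C or T on the coding strand, was in 43.5% of the members' entries, 19.7% of those of genes tested and 18.3% of all entries. Windows of 30 bases around the start are shown for the 5 lowest of the deeply counted members, for Rpl15, Rps2 and Rpl23 among the 5 highest, and for Rps6 and Rpl28, read 5′ to 3′ along the gene, with the tract in capitals.
Rpl13a (chr7:45128726-45128755, minus strand): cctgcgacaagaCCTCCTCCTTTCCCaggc
Rplp2 (chr7:141447641-141447670, plus strand): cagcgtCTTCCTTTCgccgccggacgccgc
Rpl15 (chr14:18270967-18270996, minus strand): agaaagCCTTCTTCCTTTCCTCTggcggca
Rps6 (chr4:86857348-86857377, minus strand): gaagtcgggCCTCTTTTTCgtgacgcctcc
Rpl28 (chr7:4792955-4792984, plus strand): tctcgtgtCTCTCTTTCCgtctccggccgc
Rpl9 (chr5:65391412-65391441, minus strand): gggccctgacggattacaagaacgtgatga
Rpl11 (chr4:136053374-136053403, minus strand): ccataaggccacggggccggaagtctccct
Rpl10a (chr17:28328461-28328490, plus strand): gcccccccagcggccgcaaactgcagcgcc
Rps2 (chr17:24720053-24720082, plus strand): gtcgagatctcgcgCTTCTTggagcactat
Rpl23 (chr11:97782420-97782449, minus strand): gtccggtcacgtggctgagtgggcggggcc
Of these, Rpl9, Rpl10a and Rpl11 below 0 and Rpl23, which is given no direction, had no tract. This says only that these letters are not at the annotated start. Rpl13a and Rplp2 below 0 and Rpl15 above 0 had one, as did Rps6, Rpl28 and Rps2. The RefSeq start used for Rps2 lies inside its GENCODE gene span, which begins at chr17:24718116.

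The tract did not separate the fold changes. The 28 members with a tract had a median log2 fold change of -0.07 (interquartile range -0.15 to -0.03), the 30 without one -0.06 (-0.11 to -0.00), and the 22 members without an entry -0.02. CCGGAAG, the core letters of an ETS (GABPA) motif, was on either strand in 34.8% of the members' entries, 15.2% of those of genes tested and 8.86% of all entries. GCCATC, letters of the YY1 motif, was in 26.1%, 14.5% and 14.1%. GGGCGG, the SP1 box, was in 62.3%, 57.1% and 35.7%, and TATAAA within 50 bases before the start on the coding strand in 1.45%, 1.61% and 2.63%. Matches of these motifs may overlap, and a match is not a bound site.

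Genes for related parts of the translation machinery gave values near 0. Outside the symbol rule, Fau, a ubiquitin-like protein fused to a 40S protein, had 2236 and 2221 counts (-0.12), the scaffold Rack1 had 19136 and 19459 (-0.08), and Rps3a1 had 327 and 358 (0.02). None of the 22 translation factors and other genes with TOP mRNAs was called at 2-fold, with a median of -0.03. All 22 had a mean of at least 1000 counts, where 0.751% of genes tested were called. At that share no call is the usual outcome for so few genes. Within that list, Pabpc1, the poly(A)-binding protein, had 55853 and 53752 counts (-0.16), Tpt1 had 26122 and 25110 (-0.16), the histone chaperone Nap1l1 had 9560 and 12842 (0.32), and Gas5, a host gene of small nucleolar RNAs, had 974 and 1262 (0.27). Of the list, 13 genes lay below 0 and 9 above.

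The genes that build ribosomes were also near 0. None of 40 ribosome biogenesis genes was called at 2-fold, beside 0.751% of genes with a mean of at least 1000 counts, which 38 of the 40 had. Their median was 0.01, with 17 below and 23 above 0. Nop58 and Nop56, core proteins of the box C/D particles that methylate rRNA, had 4441 and 5499 counts (0.20) and 4213 and 5122 (0.18). Sbds, which releases a factor that keeps the subunits apart, had 4065 and 3660 counts (-0.26), and Imp4 had 3122 and 2915 (-0.21). Of 19 RNA polymerase I genes tested, none was called at 2-fold, with a median of -0.01. A mean of at least 1000 counts was reached by 14 of them. The share called was 6.27% over all genes tested and 0.751% at that depth. Taf1c, a subunit of the selectivity factor, had 646 and 879 counts (0.34), and Rrn3, which joins the polymerase to that factor, had 3929 and 3548 (-0.25).

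Among 19 known regulators of ribosomal protein expression the median was -0.04. None was called at 2-fold, beside 0.751% of genes with a mean of at least 1000 counts, which 17 of the 19 had. Outside the 25% band with an interval on one side of 0 were Myc and Eif4ebp1, both lower, beside 14.1% of genes at that depth. Myc, a transcription factor that drives ribosome production, had 3033 and 2567 counts (-0.35, -0.42 to -0.27). Eif4ebp1, an inhibitor of cap-dependent translation under mTOR, had 8352 and 6128 (-0.55, -0.60 to -0.51). Larp1, which binds TOP mRNAs, had 11345 and 12329 counts (0.01, -0.02 to 0.05) and Mtor had 2124 and 2190 (-0.06, -0.15 to 0.02). The intervals of Larp1 and Mtor held 0. Gabpa had 4744 and 5567 counts (0.12, 0.07 to 0.18) and Yy1 had 2974 and 3489 (0.12, 0.05 to 0.19), both above 0 and inside the 25% band.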

How the data were processed

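Total RNA was depleted of rRNA and sequenced from a directional library kit in 1 control and 1 knockdown library. The authors deposited counts of reads per gene, as whole numbers without normalization. The submitters' processing notes name HISAT2 and GRCm38. The counting tool, the annotation and the treatment of strand, duplicates and reads with several matches are not given in the sources used here, and each can change the counts of genes with near-identical copies.

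The 17356 genes with at least 10 summed counts were tested. Library sizes were scaled by TMM (edgeR 4.0.16, R 4.3.3), and log2 fold changes used a prior count of 0.5. Without replicates neither edgeR's quasi-likelihood fit nor DESeq2's test can be made. Each gene was given a two-sided exact binomial test (scipy 1.17.1 under Python 3.11.15), adjusted by Benjamini and Hochberg's method over all genes tested, and the test was tested on simulated data. Copies were found with BLAST+ 2.17.0 among GENCODE M21 transcripts, which also gave positions and exon lengths. Promoter sequences came from RefSeq.

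Genes were named by rule: Malat1, members called or with a mean under 1000 counts, the 5 lowest and 5 highest other members, the 5 with the most counts, stalk proteins, Rpsa, paralogs, reference genes, ribosomal proteins outside the symbol rule and, per list, called genes and the 2 highest and 2 lowest. Genes beyond this rule (Rpl5, Rps12, Rpl12, Rps15, Rps19, Rpl41, Taf1c, Larp1, Mtor, the copies and the neighbours) were named after their values were seen. One gene under the rule is not reported here. The members and lists were chosen with earlier results of these data known. Alternatives were other scalings (DESeq2 1.42.0 size factors, upper-quartile factors, library totals), filters, prior counts, thresholds, edgeR's exact test with a preset variation, and sums with copies.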

Additional observations from a re-analysis of the deposited data

How the results depend on the processing

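No paired analysis was possible because each group is 1 library, and no replicate could be left out. The count of members called at 2-fold was 1 and became 0 with at least 10 counts required in each library, which removes Rps12l1 by construction, and 0 with edgeR's exact test when the biological variation was preset at 0.2 or 0.4. With 0.1 it stayed at 1. With no fold threshold, 41 members in place of 3 had an interval on one side of 0. The members' share of counts was 1.87% and 1.82% without the 17 members of few counts, and 2.63% and 2.56% with the copies summed, an alternative added after the data had been seen. That sum also moved the share of Rpl22l1 in its pair to 16.9% in the knockdown library, that of Rpl7l1 to 14.0% and 13.0%, and that of Rpl36al to 45.6% and 46.6%. The median of the endothelial markers went from -0.27 to 0.66 with genes of at least 1 summed count, and that of the macrophage markers from 0.46 to -0.089 with at least 10 counts in each library, both lists resting on few genes. The members' median, the medians of both subunits and the count of members below 0 kept their direction under every alternative run. No called value changed sign, though Rps12l1 had no copies to add. With the copies summed, 10 members without a call changed sign. Rplp0 was at -0.00 and at 0.02 with library totals. With 1 library per group, the spread between cultures is unknown for every member.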
